A study of Mus musculus with 8 samples.

Results

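The genes described here encode 10 receptor chains through which a CD8 T cell senses interleukin-12, interleukin-18, interleukin-10, interleukin-27 and the interferons. They are Il12rb1, Il12rb2, Il18r1, Il18rap, Il10ra, Il10rb, Il27ra, Ifngr1, Ifngr2 and Ifnar1, taken by gene symbol with earlier results of these libraries known, and they are 10 of 22609 gene rows in the count files. RNA came from intrahepatic CD8 T cells of C57BL/6J mice, all males aged 6 weeks, and every mouse had received αCD137, an antibody against the costimulatory receptor CD137, on day 0, 3 and 6 before the liver was taken on day 8. The sort kept live CD45+ cells that were negative for MHC class II, NK1.1 and CD4, positive for TCRβ and CD8α, KLRG1+ and CD127-, and parted them into a CD11c+ group and a CD11c- group of 4 libraries each. KLRG1 without CD127, the IL-7 receptor chain, is the usual surface profile of short-lived effector cells, and CD11c is the integrin chain encoded by Itgax. Both groups carry the same treatment, and no untreated mice are among the samples, so the values compare the CD11c+ with the CD11c- cells of treated mice only. The labels number the libraries 1 to 4 within a group and do not say whether each came from its own mouse, so each p-value is relative to a spread between libraries that may be technical.

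Most of these receptors work in pairs of unlike chains. The IL-12 receptor joins IL-12Rβ1, which it shares with the IL-23 receptor, to the signalling chain IL-12Rβ2, and acts through JAK2, TYK2 and STAT4. The IL-18 receptor joins the ligand-binding chain encoded by Il18r1 to the accessory chain encoded by Il18rap, and acts through the adaptor MyD88 and the IRAK kinases. In effector CD8 T cells both cytokines are known for raising interferon-γ output and cytotoxic granule genes. IL-10 is read by a ligand-binding chain, Il10ra, and a chain shared with other cytokines, Il10rb, while IL-27 is read by Il27ra with gp130, the product of Il6st. The receptors for interferon-γ (Ifngr1 and Ifngr2) and for the type I interferons (Ifnar1 and Ifnar2) act through JAK kinases, and the type I receptor uses STAT2 and IRF9 among its signalling proteins.

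Each library held between 5090345 and 7093163 reads assigned to genes, and between 10482 and 12581 genes had at least 1 read. Values are given as CPM, the usual depth-scaled read count, here scaled between libraries by TMM factors. Itgax, the gene of the sorted surface protein, was at 243 ± 76.4 CPM (SD, n = 4) in the CD11c+ libraries and 10.1 ± 5.64 CPM (SD, n = 4) in the CD11c- libraries. The 5 T-cell markers Cd3d, Cd3e, Cd3g, Cd8a and Cd8b1 together gave 5120 to 6290 CPM in CD11c+ libraries and 5420 to 5850 CPM in CD11c- libraries, and Cd4 stayed at or below 1.56 CPM in all 8. CD11c+ replicate 3 stood apart by its myeloid transcripts: its 9 monocyte and Kupffer cell markers summed to 367 CPM and its 4 neutrophil markers to 273 CPM, against at most 203 and 109 CPM in any other library.

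Of the 10 receptor genes, 9 had enough reads to be tested, and none passed the adjusted threshold of 0.05 in edgeR's quasi-likelihood test with Benjamini-Hochberg adjustment. Adjusted p ranged from 0.876 to 0.998. DESeq2 and limma voom likewise called none of them. Over all 10073 tested genes, 5 passed, a share of 0.0496%. At an unadjusted p under 0.05, the receptor genes numbered 3 of 9 (Il18rap, Il12rb2 and Ifnar1), against 473 of 10073 genes, or 4.70%. Il12rb2 and Il18rap had all 4 CD11c+ libraries above all 4 CD11c- libraries, which held for 161 of all tested genes (1.60%). Ifnar1 had all CD11c+ libraries below, which held for 186 of all tested genes (1.85%). The remaining 6 overlapped between groups. Il12rb2 reached the test only through its CD11c+ libraries, so its place in these counts is partly set by the filter. Fold changes were positive for 5 genes and negative for 4, with a median log2 value of 0.08 against 0.01 over all tested genes. These counts describe a list of 9 and carry no test of the list. In bulk libraries such as these, fewer cells with a transcript and less of it per cell cannot be told apart.

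**Figure D1:**
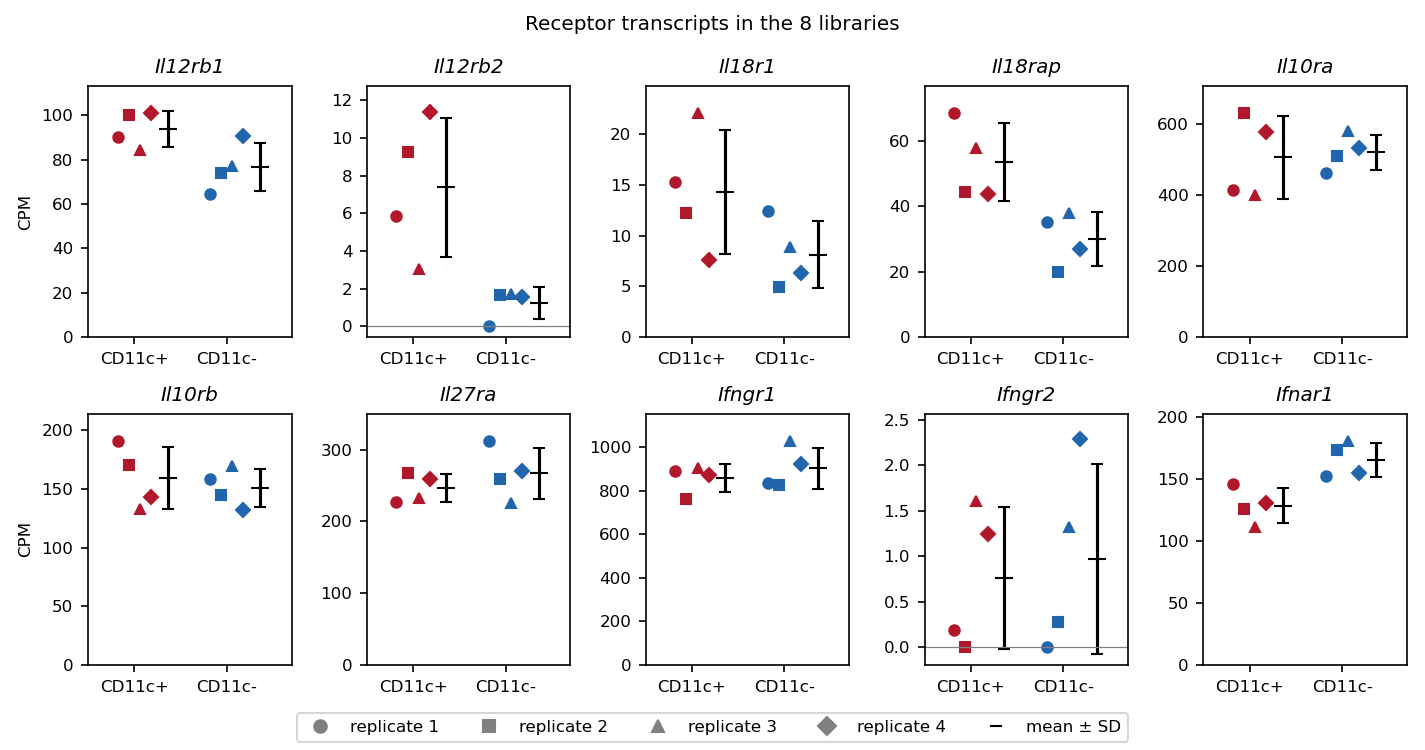
CPM of each receptor gene (vertical axes, each on its own linear scale) in the 4 CD11c+ and 4 CD11c- libraries; symbols mark the replicate number and black bars the mean ± SD. Il12rb2 and Il18rap are higher in every CD11c+ library than in any CD11c- library, Ifnar1 is lower in every one, and the other genes overlap.

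The IL-12 receptor was present mainly as its shared chain. Il12rb1, the chain that binds the p40 subunit, was at 90.3, 100.2, 84.1 and 101.0 CPM in CD11c+ replicates 1 to 4 and at 64.4, 73.8, 77.1 and 90.6 CPM in CD11c- replicates 1 to 4. The groups met only through CD11c- replicate 4, which lay above CD11c+ replicate 3 and just above CD11c+ replicate 1. Means were 93.9 ± 8.15 and 76.5 ± 10.8 CPM (SD, n = 4 each), a log2 difference of 0.30 (SE 0.16, 95% interval -0.05 to 0.64) with an unadjusted p of 0.0865 and an adjusted p of 0.991 in edgeR.

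Il12rb2, the chain that carries the STAT4 docking function and that activated T cells are known to induce, was low and uneven. Its counts were 30, 53, 17 and 73 reads in CD11c+ replicates 1 to 4 and 0, 12, 9 and 9 reads in CD11c- replicates 1 to 4. In CPM these were 5.87, 9.25, 3.03 and 11.4 against 0, 1.68, 1.69 and 1.59. Every CD11c+ library was above every CD11c- library, and the CD11c+ values themselves ranged from 3.03 to 11.4 CPM. The 0 reads of CD11c- replicate 1 allow a level of up to 0.559 CPM at that library's depth, by counting error alone. The fitted difference was 2.55 on the log2 scale (SE 0.87, 95% interval 0.67 to 4.43), or 5.84-fold (1.59 to 21.5), with an unadjusted p of 0.012 and an adjusted p of 0.961 in edgeR. The gene entered the test through the CD11c+ group alone: all 4 CD11c+ libraries and none of the CD11c- libraries reached the 1.76 CPM that the filter asks for in 4 libraries. That makes a difference in this direction a condition of its being tested.

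In the mouse annotation Il12rb2 lies between Serbp1 and Il23r, and 40.0% of its exon bases are also exon bases of Serbp1 on the opposite strand. Serbp1 encodes an abundant RNA-binding protein and was at 508.0, 567.8, 547.1 and 539.4 CPM in CD11c+ replicates 1 to 4 and at 413.7, 514.2, 454.7 and 482.2 CPM in CD11c- replicates 1 to 4. The groups overlapped, and their means were 540.6 ± 24.8 and 466.2 ± 42.6 CPM (SD, n = 4 each). Whether counting used the strand is not given in the sources used here, so reads from the shared stretch cannot be assigned to either gene with certainty. CD11c- replicate 1 held 0 Il12rb2 reads with Serbp1 at 413.7 CPM, the lowest Serbp1 value of the 8 libraries. No conclusion is drawn from this 1 library. The part of Serbp1 reads in the Il12rb2 counts was not tested, nor was any loss of Il12rb2 reads from the shared stretch. The Il12rb2 level per kilobase and its percentage of Il12rb1 below carry the same limit.

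The IL-18 receptor genes sit side by side in the annotation, after Il1rl1, the receptor gene for IL-33. Il18rap, whose product completes the signalling complex, had the lowest unadjusted p of the receptor genes. It was at 68.4, 44.4, 57.7 and 43.7 CPM in CD11c+ replicates 1 to 4 and at 35.3, 19.8, 37.8 and 26.8 CPM in CD11c- replicates 1 to 4. The lowest CD11c+ library was above the highest CD11c- library, with replicates 1 and 3 the higher ones in both groups. Means were 53.5 ± 11.9 and 29.9 ± 8.25 CPM (SD, n = 4 each). The fitted log2 difference was 0.84 (SE 0.26, 95% interval 0.29 to 1.40), or 1.79-fold (1.22 to 2.63), with an unadjusted p of 0.00609 and an adjusted p of 0.876 in edgeR. By unadjusted p the gene ranked 70 among 10073.

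Il18r1, which binds IL-18 itself, was lower than its partner per kilobase of exon in every library. It was at 15.3, 12.2, 22.1 and 7.64 CPM in CD11c+ replicates 1 to 4 and at 12.4, 4.90, 8.84 and 6.34 CPM in CD11c- replicates 1 to 4. CD11c+ replicate 4 fell within the CD11c- range, so the groups overlapped. Means were 14.3 ± 6.06 and 8.13 ± 3.30 CPM (SD, n = 4 each), a log2 difference of 0.82 (SE 0.45, 95% interval -0.16 to 1.79) with an unadjusted p of 0.0937 and an adjusted p of 0.991 in edgeR. The highest value belonged to CD11c+ replicate 3, the library with the most myeloid transcripts, whose 4 NK and ILC1 markers (Ncr1, Klrb1c, Tyrobp and Fcer1g) were also the highest at 80.4 CPM. Tyrobp alone gave 55.2 CPM of that sum, so it rests mainly on 1 gene and does not by itself show NK cells or ILC1. Without that library the log2 difference of Il18r1 was 0.52. The same library had the lowest Il12rb2 of the CD11c+ group, and without it that difference was 2.80. The part of these other cell types in the receptor values was not tested.

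Windows of 250 bases before the RefSeq transcription start (build GRCm38.p6) are shown for the 3 genes with an unadjusted p under 0.05, none of which passed after adjustment. Capitals mark a match to the GAS motif, the interferon-γ-activated site bound by STAT dimers.
Il12rb2, chr6:67376189-67376438, minus strand: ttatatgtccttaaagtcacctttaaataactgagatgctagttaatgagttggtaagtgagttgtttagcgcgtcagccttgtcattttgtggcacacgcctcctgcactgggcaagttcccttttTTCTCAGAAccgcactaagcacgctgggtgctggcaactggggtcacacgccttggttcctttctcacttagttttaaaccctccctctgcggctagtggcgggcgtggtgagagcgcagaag
Il18rap, chr1:40515112-40515361, plus strand: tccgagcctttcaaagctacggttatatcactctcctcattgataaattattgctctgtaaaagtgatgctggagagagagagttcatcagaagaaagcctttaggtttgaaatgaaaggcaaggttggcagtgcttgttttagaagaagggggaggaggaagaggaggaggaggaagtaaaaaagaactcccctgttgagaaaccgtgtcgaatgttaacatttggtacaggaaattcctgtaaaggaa
Ifnar1, chr16:91484965-91485214, plus strand: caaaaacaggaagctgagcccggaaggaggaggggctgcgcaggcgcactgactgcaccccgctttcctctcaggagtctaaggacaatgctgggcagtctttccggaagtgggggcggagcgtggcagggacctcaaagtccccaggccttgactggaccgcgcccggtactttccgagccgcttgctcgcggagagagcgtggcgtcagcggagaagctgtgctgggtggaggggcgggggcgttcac

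The windows were searched on both strands for 4 motifs: the T-box motif GGTGTGA, the GAS motif TTCNNNGAA, the interferon response core GAAANNGAA and the RUNX motif TGTGGTT. Of 32851 RefSeq promoter windows of the same length, 3.3% held the T-box letters, 7.0% the GAS letters, 7.1% the interferon response core and 4.4% the RUNX letters. Among the 3 windows shown, the only match was the GAS motif of Il12rb2, which starts 123 bases before the transcription start, and no matches overlapped. A match is a description of the letters and says nothing about binding. The windows differ in composition: Il18rap has 42.0% G and C with 4 CpG, Il12rb2 has 50.0% with 10 CpG, and Ifnar1 has 65.6% with 19 CpG, against medians of 52.4% and 6 CpG over all windows.

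The IL-10 and IL-27 receptor genes were abundant, and their groups overlapped. Il10ra, the IL-10-binding chain, was at 414.1, 632.6, 400.9 and 580.0 CPM in CD11c+ replicates 1 to 4 and at 462.3, 509.7, 581.4 and 533.5 CPM in CD11c- replicates 1 to 4. CD11c+ libraries held both the highest and the lowest values, with replicates 1 and 3 low and replicates 2 and 4 high. The log2 difference was -0.04 (SE 0.15, 95% interval -0.37 to 0.29). Il10rb, the chain that IL-10 shares with IL-22 and the lambda interferons, was at 191.2, 170.6, 132.9 and 143.1 CPM in CD11c+ replicates 1 to 4 and at 158.4, 144.8, 169.3 and 132.1 CPM in CD11c- replicates 1 to 4. Its log2 difference was 0.08 (SE 0.15, 95% interval -0.25 to 0.40), and the sign changed without CD11c+ replicate 1. The annotation places a readthrough gene, Gm21970, over 30.8% of the Il10rb exon bases on the same strand. That gene has no row of its own among the counts used here.

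Il27ra, the IL-27-binding chain, was at 227.4, 267.8, 232.9 and 258.5 CPM in CD11c+ replicates 1 to 4 and at 312.5, 259.0, 226.3 and 270.1 CPM in CD11c- replicates 1 to 4. Both the highest and the lowest value were in the CD11c- group. The log2 difference was -0.11 (SE 0.13, 95% interval -0.39 to 0.16). For Il10ra, Il10rb and Il27ra the 95% intervals lie within -0.39 and 0.40 on the log2 scale, and adjusted p was at least 0.991 in edgeR.

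Among the interferon receptor genes, Ifnar1 alone had groups that did not overlap. Ifnar1, a chain of the type I interferon receptor, was at 145.7, 126.1, 111.7 and 130.9 CPM in CD11c+ replicates 1 to 4 and at 152.6, 173.3, 181.1 and 154.7 CPM in CD11c- replicates 1 to 4. The highest CD11c+ library, at 145.7 CPM, was close under the lowest CD11c- library, at 152.6 CPM. Means were 128.6 ± 14.0 and 165.4 ± 14.0 CPM (SD, n = 4 each). The fitted log2 difference was -0.36 (SE 0.13, 95% interval -0.65 to -0.08), so the level was 1.29-fold higher in the CD11c- group, with an unadjusted p of 0.0169 and an adjusted p of 0.990 in edgeR. Ifnar2, which encodes the other chain of this receptor, was at 79.6 ± 27.0 CPM in CD11c+ and 68.7 ± 15.5 CPM in CD11c- libraries (SD, n = 4 each), a log2 difference of 0.21 with an adjusted p of 0.991 in edgeR.

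Ifngr1, which binds interferon-γ, had the highest level of the 10 genes per kilobase of exon. It was at 889.6, 763.4, 905.1 and 874.0 CPM in CD11c+ replicates 1 to 4 and at 838.1, 825.8, 1031 and 923.6 CPM in CD11c- replicates 1 to 4. The ranges overlapped over most of their length, and the log2 difference was -0.08 (SE 0.10, 95% interval -0.29 to 0.14), with an adjusted p of 0.992 in edgeR.

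Ifngr2, the chain that completes the interferon-γ receptor and brings in JAK2, had few counted reads. It had 1, 0, 9 and 8 reads in CD11c+ replicates 1 to 4 and 0, 2, 7 and 13 reads in CD11c- replicates 1 to 4. These are 40 reads in all, beside 40740 for Ifngr1. Both groups held a library at 0, in which up to 0.526 CPM (CD11c+ replicate 2) or 0.559 CPM (CD11c- replicate 1) could go unseen by counting error alone, and the highest library reached 2.29 CPM. The gene did not pass the filter and was not tested. With no filter its log2 difference was -0.35, with an adjusted p of 0.984 in edgeR. The annotation used for counting is not given in the sources used here, so its part in this low count was not tested, and the gene's level and its percentage of Ifngr1 below carry the same limit.

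**Figure D2:**
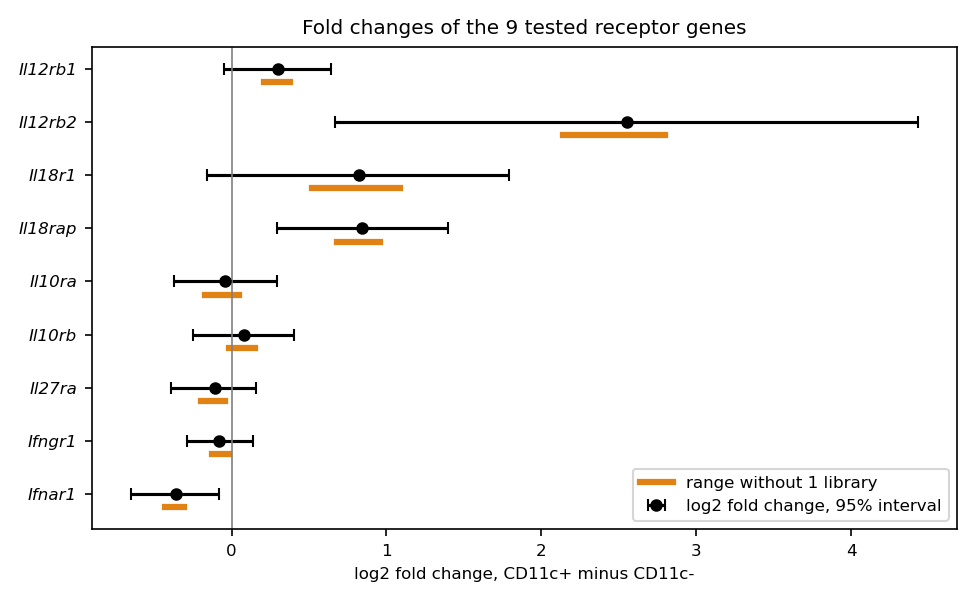
Log2 fold change (horizontal axis, CD11c+ minus CD11c-) of the 9 tested receptor genes with 95% intervals in black, and in orange the range of the fold change over the 8 fits that leave out 1 library each. The intervals of Il12rb2, Il18rap and Ifnar1 do not cross 0, and that of Il12rb2, from 0.67 to 4.43, is the widest.

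Levels of different genes were compared per kilobase of exon (CPM per kb), with exon lengths from the GENCODE annotation. Mean levels in the CD11c+ group were 406 CPM per kb for Ifngr1, 145 for Il10ra, 92.6 for Il27ra, 86.2 for Il10rb, 32.9 for Ifnar1, 32.7 for Il12rb1, 11.0 for Il18rap, 2.97 for Il18r1, 1.95 for Il12rb2 and 0.205 for Ifngr2. The same order held in the CD11c- group, at 428 CPM per kb for Ifngr1, 149 for Il10ra, 81.7 for Il10rb, 42.3 for Ifnar1, 26.6 for Il12rb1, 6.12 for Il18rap, 1.69 for Il18r1, 0.327 for Il12rb2 and 0.262 for Ifngr2, with Il27ra again between Il10ra and Il10rb. Neighbours whose libraries overlapped were Il27ra and Il10rb in both groups, Ifnar1 and Il12rb1 and also Il18r1 and Il12rb2 in the CD11c+ group, and Il12rb2 and Ifngr2 in the CD11c- group. The chains for interferon-γ binding, IL-10 and IL-27 were at the top of the order, and the inducible IL-12 chain and both IL-18 chains in its lower part, in CD11c+ and CD11c- cells alike.

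**Figure D3:**
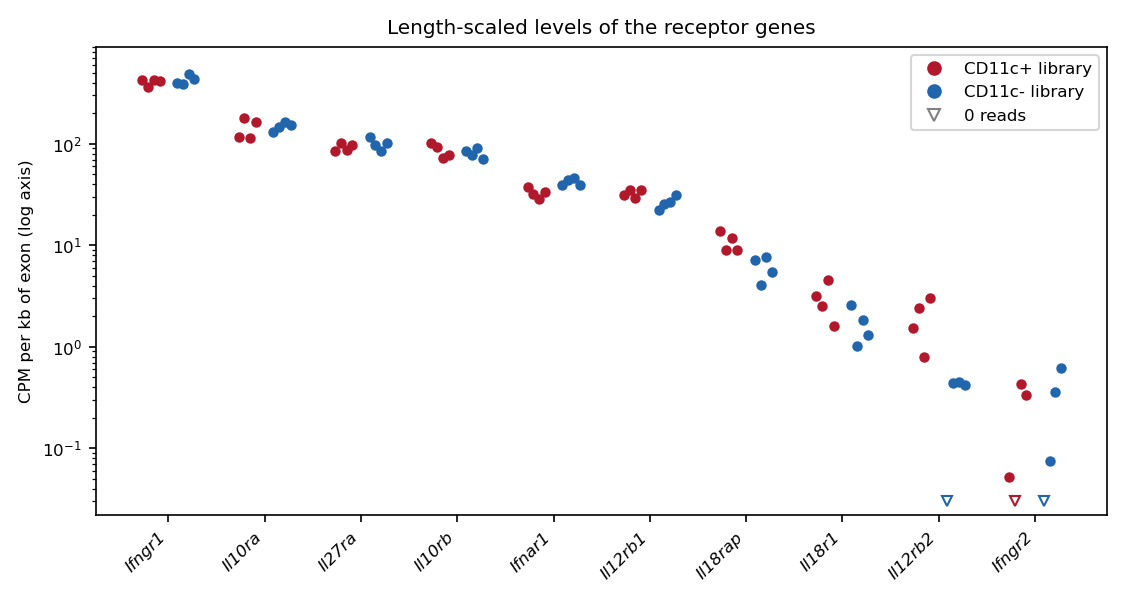
Length-scaled level (CPM per kb of exon, log axis) of the 10 receptor genes in each library, ordered by the CD11c+ mean; open triangles stand for libraries with 0 reads and are placed at the foot of the axis. Ifngr1 is at the top at 406 and 428 CPM per kb on average, and Ifngr2 at the bottom at 0.205 and 0.262.

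Within receptors, 1 chain was often far below its partner. The Il12rb2 level was 5.79% ± 2.52 of the Il12rb1 level in CD11c+ libraries (range 2.73 to 8.53%) and 1.18% ± 0.805 in CD11c- libraries (range 0 to 1.72%), on the CPM per kb scale (SD, n = 4 each). Those ranges did not meet, but the CD11c- values rest on 0, 12, 9 and 9 Il12rb2 reads. The limits given above for the filter and for the stretch shared with Serbp1 apply here too. Il18r1 stood at 26.8% ± 9.05 of Il18rap in CD11c+ and 27.2% ± 5.77 in CD11c- libraries, so this percentage was nearly the same in both groups although both chains had higher means in the CD11c+ group. Il10ra was above Il10rb in every library, at 171% ± 44.1 and 184% ± 24.2 of it.

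Il6st, the gp130 chain that completes the IL-27 receptor, was at 2.69% ± 0.448 and 2.80% ± 0.754 of Il27ra. Part of this gap comes from the length scaling, which used all annotated exon bases, 10.97 kb for Il6st and 2.66 kb for Il27ra. Ifngr2 was at most 0.141% of Ifngr1 in any library. Ifnar2 was at 74.9% ± 19.2 of Ifnar1 in CD11c+ libraries (range 49.7 to 92.7%) and 51.3% ± 11.8 in CD11c- libraries (range 39.2 to 65.3%), and these ranges overlapped. CD11c+ replicate 3 had the lowest Ifnar2 level of all 8 libraries, at 45.1 CPM. These percentages compare transcripts, and surface protein was not measured.

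**Figure D4:**
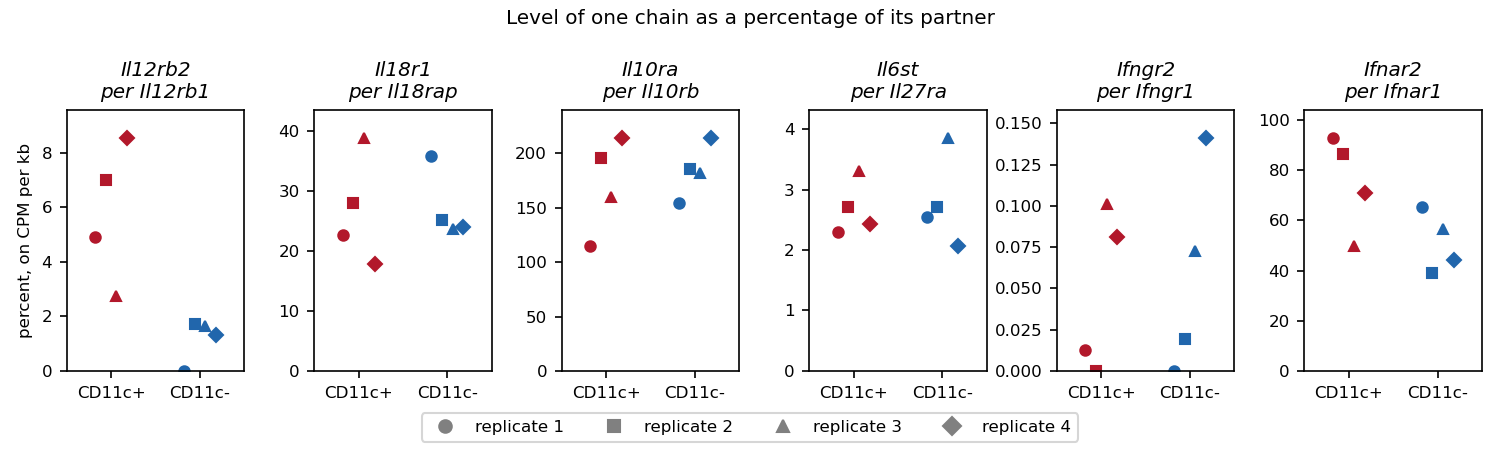
Level of 1 receptor chain as a percentage of its partner, both in CPM per kb (vertical axes, each on its own scale), in the 4 CD11c+ and 4 CD11c- libraries with symbols for replicate numbers. The groups are apart for Il12rb2 per Il12rb1, between 2.73 and 8.53% in CD11c+ against at most 1.72% in CD11c- libraries, and overlap for the other pairs. The CD11c- values of Il12rb2 per Il12rb1 rest on 0, 12, 9 and 9 Il12rb2 reads.

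The annotation keeps several of these genes together. Ifnar2, Il10rb, Ifnar1 and Ifngr2 follow each other in that order, so the receptor gene with 40 reads in all adjoins Ifnar1, with 111.7 to 181.1 CPM. Across the 8 libraries, the pattern of Il18rap among the receptor genes was closest to that of its neighbour Il18r1, with a root mean square difference of 0.331 between their centred log2 CPM. Neighbours were not the closest elsewhere. Ifnar1 and Il10rb were each closest to Ifngr1 on another chromosome (0.207 and 0.221), beside 0.249 to each other. Il12rb2 was the farthest from the other tested receptor genes, at 1.334 to 1.642. Over all tested genes, Tnfsf14 (0.195), Mllt10 (0.202) and F2rl2 (0.215) were the most like Il18rap by this measure over the 8 libraries, which is a description. Tnfsf14, which encodes the T-cell costimulatory ligand LIGHT, was at 48.2 ± 13.4 CPM in CD11c+ and 23.5 ± 2.79 CPM in CD11c- libraries (SD, n = 4 each), with an adjusted p of 0.401 in edgeR. Because Tnfsf14 was picked for its likeness to Il18rap in these same libraries, its higher CD11c+ mean follows from that choice.

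Partner receptors and the signalling genes below the receptors were taken as 8 lists of 105 genes, of which 85 were tested. None passed the adjusted threshold in edgeR, 15 had an unadjusted p under 0.05 (10 higher and 5 lower in CD11c+), DESeq2 called 5 and limma voom 3. Over all tested genes the unadjusted share was 4.70%, and the adjusted calls numbered 5 in edgeR, 36 in DESeq2 and 19 in limma voom. The list of partner and neighbour receptors had 10 of 16 genes tested, with none at an unadjusted p under 0.05 and a median log2 difference of -0.04. Il21r, the IL-21 receptor gene, was at 342.6 ± 85.1 and 385.2 ± 46.5 CPM (SD, n = 4 each). Sigirr, which encodes an inhibitory relative of the IL-18 receptor, was at 92.9 ± 12.8 and 92.2 ± 9.38 CPM. The decoy receptor gene Il1r2 and Il1rl2, which encodes an IL-36 receptor chain, were low, with means of 11.04 and 4.57 CPM in CD11c+ and 6.12 and 2.51 CPM in CD11c- libraries. Il1r1, Il22ra1 and Il22ra2 had 0 reads in all 8 libraries, and Il23r had 1 read, so beside Il12rb1 the IL-23 receptor's own chain was all but undetected.

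Transcripts of most ligands were at or near 0 in these cells. Of 13 genes, 3 were tested, none with an unadjusted p under 0.05. Ifng was at 86.0, 144.9, 85.2 and 86.2 CPM in CD11c+ replicates 1 to 4 and at 101.8, 118.9, 50.8 and 48.3 CPM in CD11c- replicates 1 to 4. The groups overlapped, and replicate 2 was the highest in each. Il10 was at 12.5 ± 3.45 and 9.95 ± 3.05 CPM (SD, n = 4 each), and Il18bp, which encodes the IL-18-binding decoy protein, at 1.35 ± 2.15 and 3.35 ± 2.99 CPM. Il12a, Il23a, Il22, Ifnb1, Ifna2 and Ifna4 had 0 reads in all libraries, Il12b had 2 reads, and Il18 reached 3.36 CPM at most.

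All 8 genes of the kinase and STAT list were tested, with 3 positive and 5 negative differences, a median of -0.18 and none at an unadjusted p under 0.05. Stat4, which serves the IL-12 receptor, was at 321.0 ± 17.1 and 277.8 ± 38.6 CPM (SD, n = 4 each; log2 difference 0.21). Jak1, used by the IL-10, IL-27 and interferon receptors, was at 859.5 ± 144.5 and 1043 ± 170.9 CPM (-0.28). Tyk2 (-0.38) and Irf9 (-0.49) had lower means in CD11c+ libraries. Adjusted p was 0.991 in edgeR for each of these 4.

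The list of MyD88-linked adaptors and kinases, which serve the IL-18 receptor or related receptors, had 8 of 9 genes tested. Of these, 3 were positive and 5 negative, with a median of -0.04 and none at an unadjusted p under 0.05. Myd88, the adaptor itself, was at 113.1 ± 17.5 and 119.9 ± 10.9 CPM (SD, n = 4 each), and Irak4, the first kinase to join it, at 59.1 ± 13.2 and 63.1 ± 9.18 CPM. Log2 differences of the others named by rule were -0.47 for Traf6, 0.56 for Irak1, 0.77 for Tirap and -0.35 for Irak2. The higher Il18rap mean in CD11c+ libraries stood beside no common direction in this list, and not every gene of the list is particular to IL-18.

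Among 9 tested negative regulators, 3 had an unadjusted p under 0.05, beside 4.70% of all tested genes, and the median log2 difference was 0.10. Groups did not overlap for 2 with CD11c+ above and 1 with CD11c+ below, beside shares of 1.60% and 1.85% over all tested genes. Cish, a feedback inhibitor of STAT5 signalling, was at 165.4, 107.7, 184.0 and 130.9 CPM in CD11c+ replicates 1 to 4 and at 99.3, 99.4, 86.7 and 87.6 CPM in CD11c- replicates 1 to 4. All CD11c+ libraries were above all CD11c- libraries (log2 difference 0.66, SE 0.17, adjusted p 0.668 in edgeR). Socs3, a feedback inhibitor of gp130 receptors, was at 32.9, 28.3, 32.8 and 26.5 CPM against 51.4, 39.1, 43.5 and 44.6 CPM in the same order. It was lower in every CD11c+ library (log2 difference -0.57, SE 0.20, adjusted p 0.990 in edgeR). Ptpn2, a phosphatase of JAK and STAT proteins, was higher in every CD11c+ library (146.2 ± 18.2 and 115.3 ± 10.4 CPM, SD, n = 4 each, log2 difference 0.34, adjusted p 0.991 in edgeR). Ptpn11 (-0.28), Ptpn6 (0.19) and Tnfaip3 (-0.17) overlapped between groups.

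The 26 interferon target genes were all tested, with 11 positive and 15 negative differences and a median of -0.06. At an unadjusted p under 0.05 stood Isg20 (23.4 ± 5.72 and 35.7 ± 7.37 CPM, log2 difference -0.61) and Irf7 (109.6 ± 23.4 and 142.7 ± 20.1 CPM, -0.38), both with lower means in CD11c+ libraries and an adjusted p of 0.991 in edgeR. Groups of both overlapped, and 4.70% of all tested genes stood under that unadjusted p. Psmb8, an immunoproteasome subunit gene, was at 1587 ± 115.1 and 1701 ± 263.5 CPM (SD, n = 4 each). Tap1, a peptide transporter gene, was at 719.6 ± 42.1 and 797.5 ± 59.9 CPM, and Gbp4 at 213.4 ± 37.8 and 173.7 ± 17.3 CPM (SD, n = 4 each). Groups did not overlap for 2 of the 26 genes, 1 in each direction, beside shares of 1.60% above and 1.85% below over all tested genes. Ifi35 was at 165.3 ± 4.99 and 188.9 ± 15.4 CPM with every CD11c+ library below (log2 difference -0.19, unadjusted p 0.123). Cxcl10, a chemokine gene named here after its values were seen, had every CD11c+ library above (log2 difference 1.15, unadjusted p 0.177).

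Targets of IL-12 and IL-18 had positive differences for 13 of 13 tested genes, with a median log2 difference of 0.51 against 0.01 over all tested genes. At an unadjusted p under 0.05 were 7 of them, beside 4.70% of all tested genes, and none passed after adjustment in edgeR. The list was put together with earlier results of these libraries known, and its genes respond to other signals of T-cell activation too, so its direction is not independent evidence. Gzmb, which encodes granzyme B, was at 1908 ± 388.6 and 1064 ± 151.2 CPM (log2 difference 0.84, SE 0.14, adjusted p 0.0637 in edgeR). It passed the threshold in DESeq2, in limma voom, and in edgeR with no filter, with a filter of 5 CPM in 4 libraries and with the other quasi-dispersion setting. In edgeR, Gzmb did not pass with other scalings or in any fit without 1 library. Nor did it pass without the 3 libraries of lowest gene number. Tbx21, which encodes the effector transcription factor T-bet, was at 349.4 ± 26.3 and 227.1 ± 19.0 CPM (0.62, SE 0.11, adjusted p 0.085 in edgeR). Serpinb9, the granzyme B inhibitor gene, was at 646.2 ± 63.4 and 454.5 ± 29.4 CPM (0.51, adjusted p 0.175 in edgeR), and the chemokine gene Xcl1 at 56.4 ± 13.5 and 26.7 ± 7.61 CPM (1.08, adjusted p 0.526 in edgeR). Each of these 4 was higher in every CD11c+ library than in any CD11c- library, which held for 1.60% of all tested genes. They were named for their low unadjusted p, so this separation is partly set by that choice. Prf1, the perforin gene, overlapped (717.7 ± 143.9 and 576.9 ± 71.7 CPM, log2 difference 0.32).

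In the list of IL-10 and IL-27 targets all 11 genes were tested, 6 positive and 5 negative, with a median of 0.09. At an unadjusted p under 0.05 stood 4 of them, beside 4.70% of all tested genes. Beside Socs3, unadjusted p was under 0.05 for Batf (215.6 ± 19.4 and 269.5 ± 36.4 CPM, log2 difference -0.32), Pdcd1, the PD-1 gene (472.5 ± 167.8 and 701.3 ± 154.2 CPM, -0.57), and Havcr2, the TIM-3 gene (310.2 ± 71.8 and 227.9 ± 60.5 CPM, 0.44), with adjusted p of 0.991 in edgeR for each. All 3 overlapped between groups, and the 2 inhibitory receptor genes differed in opposite directions. Lag3 was at 415.4 ± 172.2 and 380.6 ± 118.7 CPM (0.13).

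**Figure D5:**
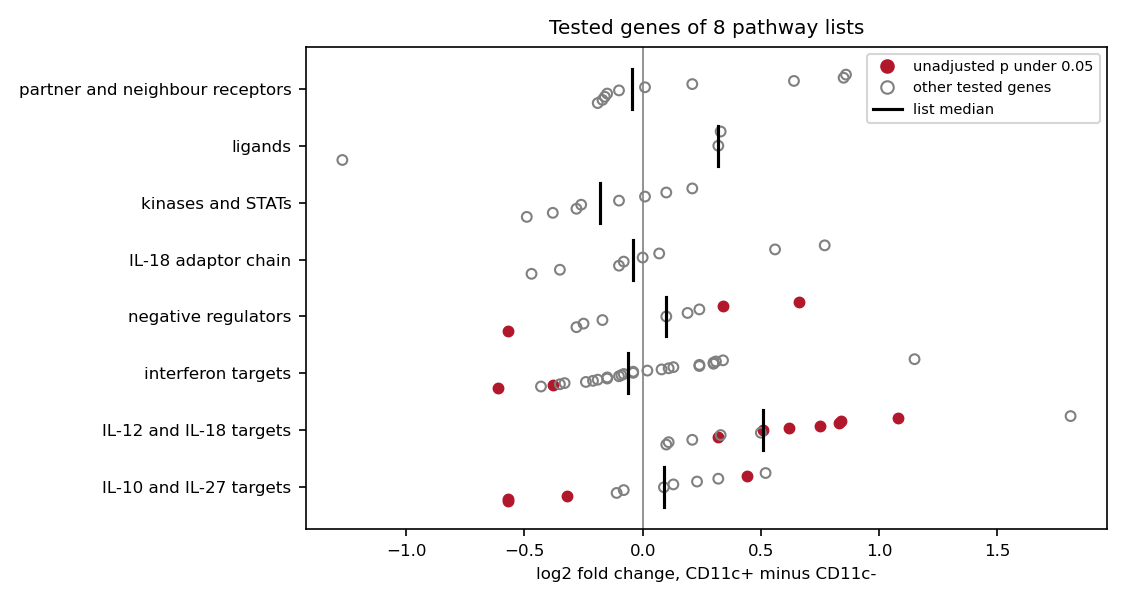
Log2 fold change (horizontal axis, CD11c+ minus CD11c-) of each tested gene in the 8 lists, with filled points for an unadjusted p under 0.05 and a black bar at each list's median. Medians lie between -0.18 and 0.51, and the 13 tested targets of IL-12 and IL-18 are all to the right of 0.

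Transcripts of other cell types were present as well. In every library the monocyte and Kupffer cell sum was above the CPM of Il12rb2, Il18r1 and Il18rap. The 7 dendritic cell markers, none of which had enough reads to be tested, summed to 4.37 to 14.6 CPM in CD11c+ and 0 to 4.58 CPM in CD11c- libraries. The 4 NK and ILC1 markers gave 11.5 to 80.4 and 6.31 to 37.2 CPM, the 9 monocyte and Kupffer cell markers 93.9 to 367 and 94.7 to 203 CPM, and the 4 neutrophil markers 2.27 to 273 and 7.56 to 109 CPM. The 3 B-cell markers stayed at or below 7.01 CPM, the 4 hepatocyte markers at or below 5.46 CPM and the 4 endothelial markers at or below 0.779 CPM, with Lyve1 at 0 in all 8 libraries. Dendritic cells, NK cells and myeloid cells also carry several of these receptors, and their part in the receptor values was not tested. No tested gene of the marker lists passed the adjusted threshold in edgeR, but no hepatocyte or endothelial marker was tested either. Tested were 1 of 3 B-cell, 3 of 9 monocyte and Kupffer cell, 3 of 4 neutrophil and 2 of 4 NK and ILC1 markers. The lack of calls therefore does not show equal amounts of other cells in both groups.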

How the data were processed

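Libraries were prepared from sorted cells with a modified SMART-seq2 protocol and Nextera XT and read as single 50-base reads, per the labels' protocols. The tools named are TopHat2 2.0.8b, HTSeq and bcl2fastq, and the build mm9, per the submitters' processing notes. For annotation and strand setting, nothing is given in the sources used here. The authors deposited raw read counts per gene symbol. Summary rows stayed out of library sizes and tests: 63.1 to 67.1% of uniquely placed reads fell in no gene, and alignments at more than 1 place made up 50.3 to 53.6% of all rows. Every pair of libraries within a group was compared by chi-square, with a lowest value per degree of freedom of 9.43, so every library was kept as a sample of its own.

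The test was edgeR's quasi-likelihood test (version 4.0.16, R 4.3.3, with filterByExpr and TMM factors), CD11c+ against CD11c-, adjusted by Benjamini-Hochberg over 10073 genes at a threshold of 0.05. Steps were tested on simulated data. A count of 0 was taken to allow up to 3 reads, covering counting error only. Exon lengths and overlaps come from GENCODE on GRCm38, not from the authors' annotation, promoters from RefSeq. Alternatives were DESeq2 1.42.0, limma 3.58.1 voom, other scalings and filters, a replicate block and libraries left out.

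The members and lists were chosen with earlier results of these data known. Named were all 10 receptor genes, and per list the genes past the threshold, up to 4 of lowest unadjusted p and the 2 of highest mean CPM; 1 gene so named is not reported here. For likeness, the 3 tested genes nearest to Il18rap in centred log2 CPM (prior count 2) were named.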

Additional observations from a re-analysis of the deposited data

Results flagged for a closer look

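Of 116 groups of 4 libraries examined for a value far from the other 3, 9 had one, and chance flags about 1 in 20 groups. Il12rb2 was at 0 CPM in CD11c- replicate 1, against 1.59 to 1.69 CPM in the other CD11c- libraries; without that library its log2 difference was 2.14 rather than 2.55. The same library held the highest Il18bp (7.80 CPM, others 1.41 to 2.10) and Irf9 (297 CPM, others 142 to 159) of its group, and the lowest Ptpn11 (78.4 CPM, others 99.6 to 101). Ifng was at 145 CPM in CD11c+ replicate 2, against 85.2 to 86.2 CPM in the other CD11c+ libraries. Irak4 was at 76.7 CPM in CD11c- replicate 3 (others 57.3 to 60.4), and Havcr2 at 318 CPM in CD11c- replicate 2 (others 193 to 207). The 4 neutrophil markers summed to 273 CPM in CD11c+ replicate 3 (others 2.27 to 41.3). The 4 endothelial markers summed to 0.14 CPM in CD11c- replicate 2, with the other CD11c- libraries at 0.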

How the results depend on the processing

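None of the receptor genes passed the adjusted threshold under any of 17 alternatives. Of 152 recomputed fold changes of the receptor genes, 146 kept their direction. Il12rb2 stayed between 2.11 and 2.80 on the log2 scale (lowest adjusted p 0.229, DESeq2) and was not tested with the filter of 5 CPM in 4 libraries, Il18rap between 0.68 and 0.96 (lowest 0.278, DESeq2), Ifnar1 between -0.49 and -0.31 (lowest 0.468, limma voom), and Il18r1 between 0.52 and 1.14. The 6 that changed sign were Il10ra without 1 library (range over such fits -0.17 to 0.05) and Il10rb without 1 library (-0.02 to 0.15), with limma voom (-0.01) and without the 3 libraries of lowest gene number (-0.12); for both genes the main value is smaller than its SE.

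Over all genes the count past the threshold was 5 and moved to 36 with DESeq2, 19 with limma voom, 13 with the replicate block, 12 with no filter, 11 with edgeR's other quasi-dispersion setting, 11 without the 3 libraries of lowest gene number and 8 with the filter of 5 CPM, and lay between 1 and 5 without 1 library. Of the list genes, 0 with the main settings became 5 with DESeq2 (Ccl4, Gzmb, Serpinb9, Tbx21 and Xcl1), 3 with limma voom (Gzmb, Serpinb9 and Tbx21), and 1, Gzmb, with the replicate block, with no filter, with the filter of 5 CPM and with the other quasi-dispersion setting. Causes were not tested. Libraries with the same number correlated by 0.096, 0.167, 0.119 and 0.19 in their deviations from the group means; each library correlated best with its own number, a hint from the data and not the design, so the numbers were not taken as pairs. Depth limits Ifngr2 and Il12rb2, where 3 reads are 0.423 to 0.589 CPM.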
